A study of Mus musculus with 9 samples.

Results

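The testis-specific serine kinases (TSSK) of the mouse are encoded by Tssk1, Tssk2, Tssk3, Tssk4, Tssk5 and Tssk6, and these 6 genes are described here among the 23074 genes of a testis RNA-seq count table. They were found by matching the Ensembl gene ID of each row to its GENCODE M21 symbol, a rule that uses no measured value, although earlier results of these data were known when the family was picked. The mRNAs were measured in testes of 9 mice at postnatal days 29 to 30, 1 library per mouse, in 5 wild type and 4 Rfx2-/- animals. RFX2 is a transcription factor that binds the X-box motif, and the comparison asked which testis mRNAs differ when it is lost. In Rfx2-/- mice the exon that encodes most of the DNA-binding domain was floxed in embryonic stem cells of strain 129/Sv and removed in all cells, germline included, by crossing to a strain that carries Cre under the actin promoter (ACTB-Cre, FVB/N). Both genotypes were of a mixed background of C57BL/6, 129/Sv and FVB/N. By the histology of the study, mutant spermatids stop developing before they elongate, which limits the group as a model of gene regulation in late spermatids. In whole-testis RNA, fewer cells of a type and less mRNA per cell cannot be told apart.

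TSSK proteins are small serine/threonine kinases of the AMPK-related branch of the kinase tree. Their genes are switched on almost exclusively in postmeiotic male germ cells, where round spermatids condense their chromatin, build a flagellum and shed their cytoplasm. TSSK1 and TSSK2 bind the testis protein TSKS and are needed together for male fertility, TSSK3 and TSSK4 act in the formation of functional sperm, and loss of TSSK6 leaves sperm with poorly condensed chromatin and makes males sterile.

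The 6 genes lie at 5 places in the genome (GRCm38). Tssk1 (ENSMUSG00000041566, chromosome 16, 17894223 to 17897922, plus strand) and Tssk2 (ENSMUSG00000045521, chromosome 16, 17898637 to 17900024, plus strand) are single-exon genes 715 bp apart. Tssk6 (ENSMUSG00000047654, chromosome 8, 69902184 to 69903518, plus strand) also has a single exon. Tssk3 (ENSMUSG00000000411, chromosome 4, 129489014 to 129491022, minus strand) has 2 exons, Tssk4 (ENSMUSG00000007591, chromosome 14, 55650184 to 55652539, plus strand) has 3, and Tssk5 (ENSMUSG00000060794, chromosome 15, 76371952 to 76374938, minus strand) has 8 after exons of all isoforms were merged. Coding sequences of Tssk1 and Tssk2 were 78.65% identical over 1063 aligned bases, whereas the other 14 pairs shared between 57.16% and 61.7%.

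The family likeness is shown here at the DFG motif, which opens the activation segment of a protein kinase and holds the magnesium ion beside ATP. The 24 coding bases around that motif are printed for each gene, 5′ to 3′ on the coding strand, to show which members can be told apart by sequence. Lower case marks the 13 bases that all 6 genes share and capitals mark the 11 that differ in at least 1 gene. The window was found by an amino acid pattern that includes the motif, so many of the shared bases follow from the search.
Tssk1: AtCaaACtGTcTgaCttCggCttC
Tssk2: AtCaaACtGTcTgaCttCggCttC
Tssk3: CtGaaGCtGAcCgaCttTggCttT
Tssk4: GtGaaGAtATcGgaCttTggCttC
Tssk5: AtAaaGCtGAcAgaTttTggCttT
Tssk6: GtCaaGAtCAcGgaTttCggTttC
The stretches of Tssk1 (chr16:17894800-17894823) and Tssk2 (chr16:17899182-17899205) were identical, and in Tssk5 an intron splits the window. They belong to the longest run shared by Tssk1 and Tssk2, of 113 bases (chr16:17894723-17894835 and chr16:17899105-17899217, plus strand, DFG window in capitals), which is shown because a 50-base read that falls within it matches both genes. Reads were single and of 50 bases by 1 passage of the methods, a shorter length stands in another, and the percentages of shared sequence given here assume 50.
Shared run: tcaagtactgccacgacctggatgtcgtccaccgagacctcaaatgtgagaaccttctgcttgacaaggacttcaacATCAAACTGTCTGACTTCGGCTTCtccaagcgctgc
Reads with more than 1 position in the genome were discarded by the authors, so reads lying wholly within this run were counted for neither gene. Of all possible 50-base words in the exons, 9.335% for Tssk2 and 3.835% for Tssk1 also occur in another gene, against 0 for Tssk3, Tssk4 and Tssk5. For Tssk6 the share was 25.35%, all of it in Ndufa13, which lies on the opposite strand and overlaps the Tssk6 exon over 375 bp.

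Promoter sequences (RefSeq, GRCm38.p6, 250 bases before to 50 after the start) were available for 5 of the 6 genes. Exact matches alone were sought on both strands for the X-box bound by RFX proteins (GTTNCC, then 3 bases, then GNAAC), the shorter GTTGCC within it, and the cyclic AMP response element TGACGTCA with the shorter TGACG, which is part of it. Exact matches to the X-box, its short form and the full response element were in none of the 5, and in 0.804%, 12.5% and 1.79% of all 32851 promoters. Near matches were not searched for, neither in the other member windows nor over all promoters. The Tssk6 window holds gttacccgggcaat, which departs from the X-box at its last base only. How common such a near match is was not determined, and binding of RFX2 to it was not examined here, so it does not set Tssk6 apart. TGACG occurred in 20.8% of all promoters and in 1 of these 5, that of Tssk6. The Tssk6 window (chr8:69901934-69902233, plus strand) is printed because it holds this single match, 73 bases before the start, in capitals.
Tssk6 promoter: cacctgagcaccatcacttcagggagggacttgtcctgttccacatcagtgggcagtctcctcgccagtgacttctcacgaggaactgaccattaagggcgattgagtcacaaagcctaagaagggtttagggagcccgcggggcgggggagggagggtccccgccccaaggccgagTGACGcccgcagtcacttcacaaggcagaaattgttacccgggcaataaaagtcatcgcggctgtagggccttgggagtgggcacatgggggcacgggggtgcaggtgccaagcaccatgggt

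Sequencing depth was 13574764 to 15193330 counts for 8 libraries, with 28800855 for Rfx2-/- replicate 1. Levels are given as CPM (read counts scaled to a common library size, with TMM factors), and 3 counts, the most that a count of 0 allows, correspond to at most 0.2337 CPM. A gene was called when its edgeR quasi-likelihood F test gave a Benjamini-Hochberg adjusted p of at most 0.01 and it differed over 2-fold. Rfx2 itself had 548.8 ± 54.4 CPM (SD, n = 5) in wild type and 146 ± 59.7 CPM (SD, n = 4) in Rfx2-/- testes, 26.6% of wild type and without overlap (edgeR adjusted p 0.000781). The sum of 10 elongating spermatid markers was 8627 to 18360 CPM in wild type and 6847 to 11080 in Rfx2-/- libraries, and 6 Sertoli cell markers summed to 220.1 to 338.5 CPM over all libraries. No marker of any testis cell type list was at 0. Wild type replicate 3 stood apart by low spermatid markers and Rfx2-/- replicate 2 by high counts of short transcripts and high meiotic prophase markers. Several results given here are repeated without them. Both were picked in these same data. Wild type replicate 3 was the lowest wild type library for every member, and Rfx2-/- replicate 2 the highest knockout library for Tssk1, Tssk2, Tssk3 and Tssk6. Leaving them out therefore widens the difference of these genes, and all p-values without these libraries are descriptions only.

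All 6 kinase mRNAs were abundant in wild type testes, and they differed widely in level per length. Counts per kilobase of merged exons (CPM per kb) were highest for Tssk2, at 278.1 ± 60.66 (SD, n = 5), followed by Tssk3 at 111.8 ± 23.06 and Tssk6 at 107.7 ± 29.11. Tssk1 had 78.53 ± 13.3 CPM per kb, Tssk4 66.79 ± 11.07 and Tssk5 17.33 ± 2.518. Of neighbours in this order, the wild type ranges were separate only between Tssk2 (188.2 to 356.7) and Tssk3 (75.56 to 137.4) and between Tssk4 (48.66 to 78.6) and Tssk5 (13.13 to 19.48). Compared inside each wild type library, Tssk6 was above Tssk1 and Tssk1 above Tssk4 in every one at these lengths. Tssk3 was above Tssk6 except in wild type replicate 1 (112.6 against 135 CPM per kb), so the order of this pair was not resolved. The place of Tssk1 depends on its length, which is 3700 bp in GENCODE M21 and 1451 bp in RefSeq, and with the shorter transcript it had 200.2 ± 33.91 CPM per kb. The place of Tssk6 is uncertain too, since 375 of its 1335 bp overlap Ndufa13. Reads there may not have been counted, in which case its value per kb is too low. In Rfx2-/- testes the order was the same except that Tssk1 (77.31 ± 13.27 CPM per kb, SD, n = 4) came before Tssk6 (62 ± 25.55), and their ranges overlapped.

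None of the 6 TSSK mRNAs was called in Rfx2-/- testes, and the levels of every member overlapped between genotypes. The estimates nevertheless ran from 57.6% of the wild type mean for Tssk6 to 140% for Tssk5, with Tssk1 at 98.5% and Tssk2, Tssk3 and Tssk4 between 77.5% and 79.8%. Among 15613 genes tested, 3.68% were called lower and 0.826% higher, so 0 of 6 members is near the background. The median log2 fold change of the members was -0.34, with 5 of 6 below 0. For all genes tested it was 0.03, with 7316 of 15613 below 0. At an unadjusted p under 0.05, Tssk4 and Tssk6 were lower and Tssk5 was higher. Of the 15613 genes, 2143 were lower and 2166 higher at that limit. At an edgeR adjusted p of 0.05 without a fold limit, which 7.31% of all genes passed as lower and 3.48% as higher, there was still no member, and the DESeq2 test with the 2-fold limit called 0 as well.

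**Figure D1:**
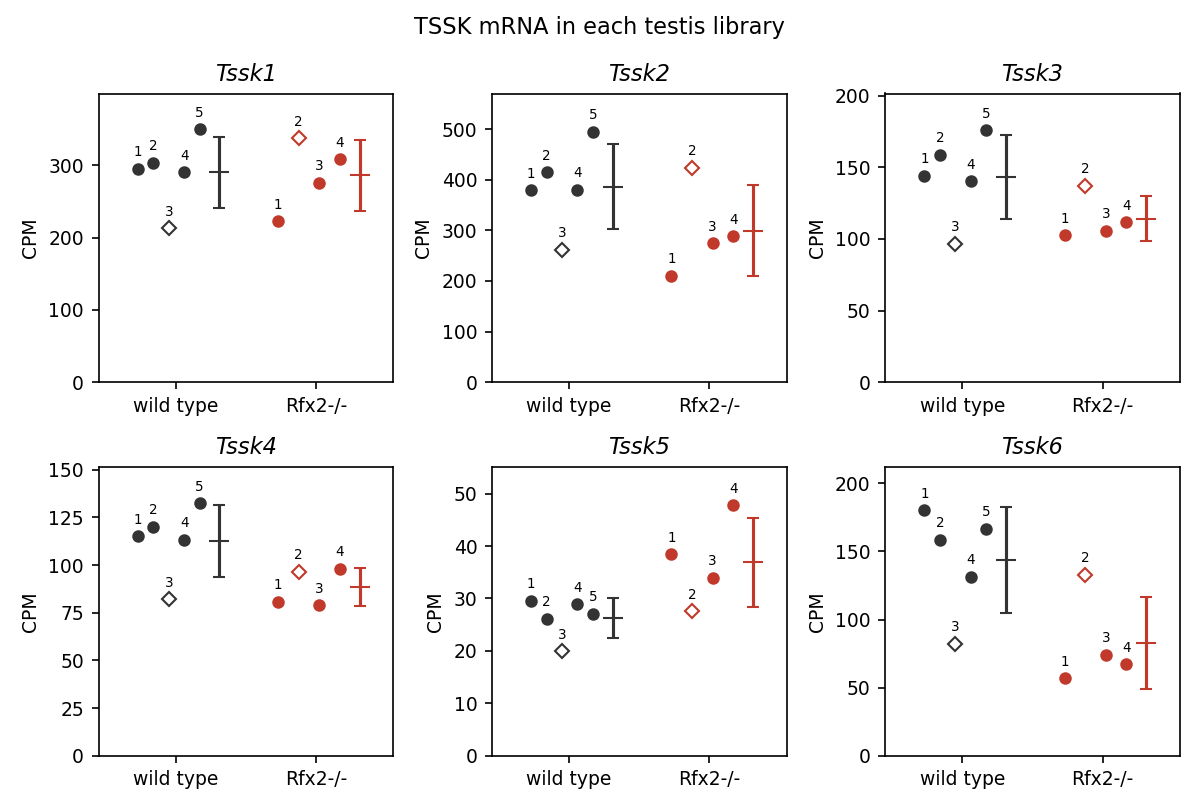
Level of each TSSK mRNA in CPM (scaled read counts, vertical axes starting at 0) in the 5 wild type (dark) and 4 Rfx2-/- (red) libraries, numbered by replicate, with the mean and SD of each genotype beside the points. Open diamonds mark wild type replicate 3, the lowest wild type library for all 6 genes, and Rfx2-/- replicate 2, the highest knockout library for Tssk1, Tssk2, Tssk3 and Tssk6 and the lowest for Tssk5.

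Tssk6, the kinase linked to chromatin condensation, had the lowest estimate. Its wild type libraries had 180.2, 158.8, 82.04, 131.3 and 166.6 CPM in replicates 1 to 5. The Rfx2-/- libraries had 56.8, 132.8, 74.22 and 67.26 CPM in replicates 1 to 4. Replicates 1, 3 and 4 were thus below every wild type library, while replicate 2 fell within the wild type range. The means were 143.8 ± 38.9 and 82.77 ± 34.1 CPM (log2 fold change -0.80, SE 0.28, 95% interval -1.40 to -0.19, edgeR adjusted p 0.0888). Without Rfx2-/- replicate 2 the gene was called lower, at -1.12 (edgeR adjusted p 0.00461), and without both that library and wild type replicate 3 at -1.27 (edgeR adjusted p 6.36e-06). These were the highest knockout and the lowest wild type library of Tssk6, so their removal widens the difference by construction. After removal of the trend with transcript length the value was -0.89 (edgeR adjusted p 0.00944), within the 2-fold limit, and DESeq2 gave -0.79 (adjusted p 0.0441).

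The exon of Tssk6 overlaps that of Ndufa13, a subunit of respiratory complex I transcribed from the other strand, and the use of strand in counting was not stated. Ndufa13 had 68.83, 72.41, 55.73, 66.45 and 81.02 CPM in wild type libraries. Rfx2-/- libraries had 55.08, 124.9, 62.3 and 68.76 CPM, so that replicate 2 was the highest of all 9 libraries and the others lay within or just below the wild type range. The log2 fold change of Ndufa13 was 0.17 (SE 0.23, edgeR adjusted p 0.644). Reads over exons of different genes were left out by the authors, which without strand would remove this overlap from both counts. Yjefn3, which overlaps the Tssk6 exon by 15 bp, had 2.883 ± 1.68 and 2.61 ± 1.31 CPM.

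Tssk5, the least abundant member, was the single one whose estimate was above wild type. It had 29.56, 26.15, 19.93, 28.88 and 27.03 CPM in wild type libraries. In the Rfx2-/- libraries it had 38.46, 27.59, 33.91 and 47.78 CPM. All but Rfx2-/- replicate 2 exceeded the highest wild type library. The means were 26.31 ± 3.82 and 36.93 ± 8.49 CPM (log2 fold change 0.49, SE 0.18, 95% interval 0.11 to 0.88, edgeR adjusted p 0.0987). It was 0.61 without Rfx2-/- replicate 2 (edgeR adjusted p 0.0118) and 0.52 when wild type replicate 3 was also left out (edgeR adjusted p 0.00923), in both cases under 2-fold.

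Tssk1 and Tssk2, the adjacent pair with identical DFG windows, differed unequally between genotypes, by a test of their ratio given further on. Tssk1 had 295.2, 303.8, 213.2, 290.7 and 349.8 CPM in wild type, against 222.8, 337.3, 275.7 and 308.4 CPM in knockout libraries. The knockout values lay inside the wild type range, and the log2 fold change was -0.02 (SE 0.17, 95% interval -0.40 to 0.36, edgeR adjusted p 0.944), a sign that changed to 0.12 with scaling by total counts to 0.07 after removal of the length trend, and to 0.11, 0.03 and 0.05 without Rfx2-/- replicate 1, Rfx2-/- replicate 3 or wild type replicate 5. Tssk2 had 379, 414.7, 261.3, 380.2 and 495.1 CPM in wild type, against 210.3, 423.7, 274.3 and 288.5 CPM in knockout libraries. Here Rfx2-/- replicates 1, 3 and 4 were below every wild type library except replicate 3, which replicate 1 was also below, and replicate 2 was second only to wild type replicate 5. The Tssk2 means were 386 ± 84.2 and 299.2 ± 89.7 CPM (log2 fold change -0.37, SE 0.22, 95% interval -0.86 to 0.12, edgeR adjusted p 0.302), and the estimate depended on single libraries. It was -0.20 without Rfx2-/- replicate 1 (edgeR adjusted p 0.538), -0.58 without Rfx2-/- replicate 2 (edgeR adjusted p 0.0469) and -0.70 without both libraries that stand apart (edgeR adjusted p 0.00196).

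Tssk3 and Tssk4, which act in sperm formation, had nearly equal estimates. Tssk3 had 144.2, 158.8, 96.72, 140.1 and 175.9 CPM in wild type, against 102.4, 137.1, 105.7 and 111.6 CPM in knockout libraries (log2 fold change -0.33, SE 0.18, 95% interval -0.71 to 0.06, edgeR adjusted p 0.253). Tssk4 had 115, 120.1, 82.04, 113.3 and 132.5 CPM in wild type, against 80.69, 96.6, 78.85 and 97.98 CPM in knockout libraries (log2 fold change -0.35, SE 0.16, 95% interval -0.69 to -0.004, edgeR adjusted p 0.177). For both genes all 4 knockout libraries were below 4 of the 5 wild type libraries, and wild type replicate 3 accounted for the overlap. Without that library and Rfx2-/- replicate 2 the values were -0.54 for Tssk3 and -0.49 for Tssk4 (edgeR adjusted p 0.00282 and 0.00678), under 2-fold. In none of the 6 genes were the genotypes separate. Over all genes tested, all knockout libraries were below all wild type libraries in 9.7% and above them in 6.16%. With so few members, 0 of 6 does not set the family apart from these shares.

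The members were next compared with each other inside each library, where scaling cancels. The 6 genes summed to 1102 ± 217 CPM in wild type, against 907.7 ± 186 CPM in knockout testes, 82.3% of wild type. Tssk1 made up 26.51 ± 1.06% of this sum in wild type (SD, n = 5) and 31.67 ± 1.88% in Rfx2-/- testes (SD, n = 4). Tssk6 made up 12.91 ± 1.84% and 8.9 ± 1.84%, and Tssk5 2.42 ± 0.3% and 4.25 ± 1.38%. The share of Tssk2 was 34.93 ± 1.29% and 32.53 ± 3.03%, and those of Tssk3 and Tssk4 differed by 0.35 percentage points or less.

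Ratios of 2 members in the same library were tested for all 15 pairs by an exact two-sided permutation test over all splits of 5 libraries against 4, for which the smallest possible p is 0.00794. The log2 ratio differed between genotypes in 6 pairs, each with an adjusted p of 0.0397 over the 15 pairs. Tssk1 was higher in Rfx2-/- testes relative to Tssk2 by 0.36, to Tssk3 by 0.29, to Tssk4 by 0.32 and to Tssk6 by 0.80. Tssk2 was higher relative to Tssk6 by 0.44, and Tssk4 lower relative to Tssk5 by 0.81 (difference -0.81). The genotypes were separate for Tssk1/Tssk4, Tssk2/Tssk6 and Tssk4/Tssk5. The Tssk1/Tssk4 log2 ratio was 1.34 to 1.40 in the wild type libraries and 1.47, 1.80, 1.81 and 1.65 in the Rfx2-/- libraries, with the smallest spread of any pair in wild type (SD 0.02). The largest difference was that of Tssk5/Tssk6, at 1.30 (exact permutation p 0.0238, adjusted p 0.051), for which Rfx2-/- replicate 2 (-2.27) lay inside the wild type range of -2.62 to -2.04 and the other knockout libraries were at -0.56, -1.13 and -0.49. Among Tssk2, Tssk3 and Tssk4 the ratios differed by -0.08 to 0.03, with exact permutation p of 0.579 or more, although Tssk2/Tssk3 passed without Rfx2-/- replicate 2, at -0.17 (adjusted p 0.0223).

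The number of pairs past the threshold depended on the libraries included. It was 13 of 15 without Rfx2-/- replicate 2, 13 without that library and wild type replicate 3, and 5 after removal of the length trend, where Tssk1/Tssk3 (adjusted p 0.0714) and Tssk1/Tssk4 (0.0595) no longer passed and Tssk3/Tssk5 did (0.0298). It was 0 without any single one of wild type replicates 1 to 5, and 0 without Rfx2-/- replicate 1, 3 or 4. With 1 wild type library fewer there are 70 splits with a smallest p of 0.0286, and at least 9 of the 15 pairs would have to reach it to pass. With 1 knockout library fewer there are 56 splits with a smallest p of 0.0179, and at least 6 pairs would have to reach it. The direction of each of the 6 differences stayed the same under all alternatives.

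**Figure D2:**
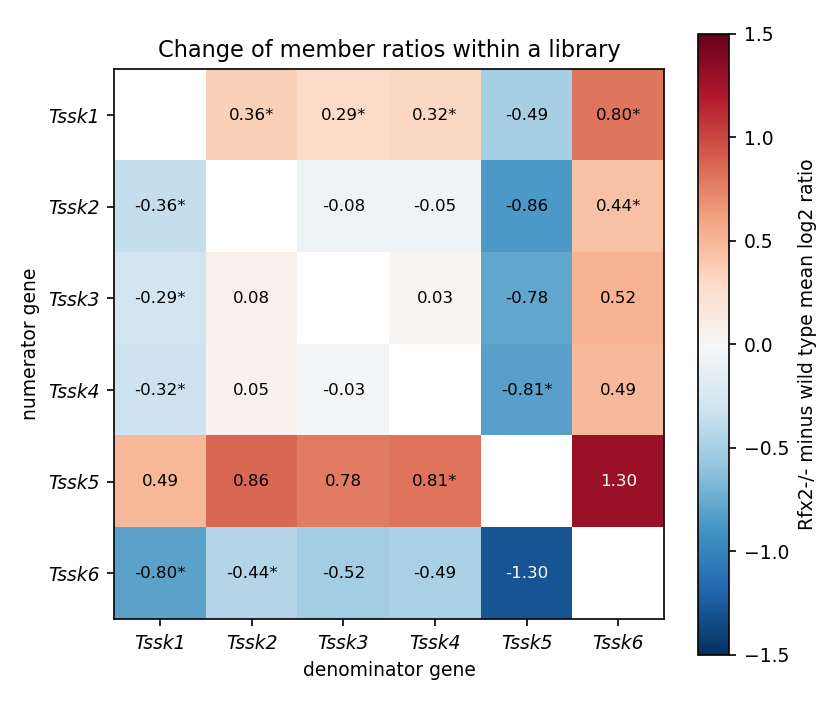
Difference between genotypes (mean of 4 Rfx2-/- minus mean of 5 wild type libraries) of the log2 ratio of the gene in the row to the gene in the column, with red for a higher and blue for a lower ratio in Rfx2-/- and an asterisk for an adjusted p under 0.05 in the exact permutation test over 15 pairs. The Tssk1 row is positive except against Tssk5, the Tssk5 row is positive throughout and the Tssk6 row is negative throughout.

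The members were also set against markers of the cells that hold their mRNAs. The 8 round spermatid markers had a median log2 fold change of 0.33, 2 of 8 below 0 and none called. The 10 elongating spermatid markers, among them protamines and transition proteins, had a median of -0.76, all 10 below 0, none called and 5 lower at an edgeR adjusted p of 0.05. Of all 15613 genes tested, 7316 were below 0 and 7.31% were lower at that limit. The elongating markers stayed at 43.2% (Prm1) to 89.2% (Oaz3) of wild type although mutant spermatids do not elongate, so the list does not measure elongating cells alone. The study, which used DESeq with a p limit of 0.01, reports no reduction of Tnp1 and Tnp2 mRNA. Here neither gene was called, and the genotypes overlapped for both. Their estimates were 46.1% of wild type for Tnp1 (edgeR adjusted p 0.0416) and 58.5% for Tnp2 (edgeR adjusted p 0.0927). These percentages are another measure than the study's test and do not contradict it. Relative to wild type, the mean log2 deviation of the elongating list was -0.68 in wild type replicate 3 and -0.09 to 0.36 in the rest of that genotype, and -0.34 in Rfx2-/- replicate 2 and -0.97 to -0.78 in the other knockout libraries. The same 2 libraries stood out in the mean over the 6 kinases, with -0.51 in wild type replicate 3 against 0.02 to 0.26, and 0.03 in Rfx2-/- replicate 2 against -0.48 to -0.16. Markers of other cells had median log2 fold changes of 0.65 (6 meiotic prophase), 0.08 (5 late spermatocyte), 0.00 (5 spermatogonia), 0.21 (6 Sertoli cell), 0.19 (6 Leydig cell), -0.01 (3 peritubular cell) and 0.20 (4 macrophage genes), with none called. The meiotic prophase value leaned on Rfx2-/- replicate 2, with a mean log2 deviation of 1.29 against 0.20 to 0.39 in the other knockout libraries. The part of these marker differences in the TSSK values was not tested.

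As a ratio to these lists in the same library, 10 of 12 comparisons differed at an adjusted p under 0.05 over the 12 (exact two-sided permutation test). The lists themselves differed between genotypes, with medians of 0.33 (round) and -0.76 (elongating). A gene without a genotype difference is therefore lower against the first and higher against the second. Tssk1, with a log2 fold change of -0.02, is such a case. All members share these denominators, and how many other genes would pass was not determined. Relative to round spermatid markers, 5 kinases were lower in Rfx2-/- testes: Tssk6 by a log2 difference of -1.05, Tssk2 of -0.61, Tssk4 of -0.56, Tssk3 of -0.53 and Tssk1 of -0.25. After removal of the length trend the value of Tssk1 was -0.14 (adjusted p 0.528), so that 4 kinases remained lower. Tssk5 had a difference of 0.25 (exact permutation p 0.159). Relative to elongating spermatid markers, 5 kinases were higher: Tssk5 by 1.22, Tssk1 by 0.73, Tssk3 by 0.44, Tssk4 by 0.41 and Tssk2 by 0.37. The difference of Tssk6 was -0.07, within the spread of the libraries (exact permutation p 0.548). Adjusted p-values of the 10 were 0.019 to 0.0381.

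Genotypes were separate for Tssk4 and Tssk3 against the round list and for Tssk1, Tssk3 and Tssk5 against the elongating list. The Tssk4 ratio to the round list was -0.39 to -0.15 in wild type and -0.92 to -0.76 in Rfx2-/- libraries, with replicate 2 inside the knockout range. The Tssk6 ratio to the elongating list was -3.23 to -2.91 in wild type and -3.45, -2.85, -3.25 and -3.26 in Rfx2-/- libraries. The count of 10 was 10 without wild type replicate 3 or without Rfx2-/- replicate 2, and 11 without both. It was 9 after removal of the length trend, 6 without Rfx2-/- replicate 1, 9 without replicate 3, 5 without replicate 4, and 0 without wild type replicate 1, 2, 4 or 5, where at least 7 of 12 would have to reach the smallest p.

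**Figure D3:**
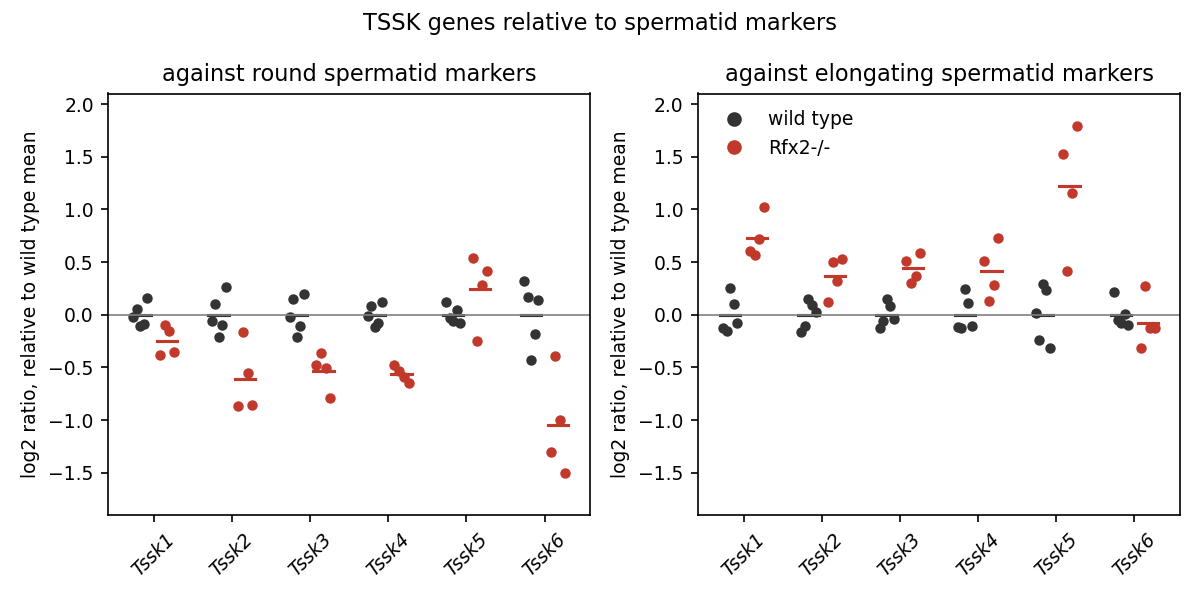
Log2 ratio of each TSSK gene to the mean of 8 round (left) or 10 elongating (right) spermatid markers in the same library, relative to the wild type mean, with 1 point per library (dark, 5 wild type; red, 4 Rfx2-/-) and a line at each genotype mean. Against round spermatid markers 5 genes lie lower in Rfx2-/- and Tssk5 does not, and against elongating spermatid markers 5 genes lie higher and Tssk6 does not. Both marker lists themselves differ between genotypes, which shifts every ratio to them.

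Partner and substrate genes of the kinases were examined from a list of 8. None was called, 6 of 8 were below 0, and the median log2 fold change was -0.21. Of the 15613 genes tested, 3.68% were called lower and 0.826% higher, and 7316 were below 0. The absence of calls is thus near the background. Tsks, the anchoring substrate of TSSK1 and TSSK2, had 510.4 ± 132 CPM in wild type, against 363.8 ± 37.6 CPM in knockout testes (log2 fold change -0.49, SE 0.21, edgeR adjusted p 0.15). Its wild type libraries had 564.5, 568, 294, 489.3 and 636.1 CPM and its knockout libraries 331.8, 414.6, 339.5 and 369.4 CPM. As for Tssk3 and Tssk4, the knockout libraries were below all wild type libraries except replicate 3. Without that library Tsks was at -0.59 (edgeR adjusted p 0.0258), and without Rfx2-/- replicate 2 as well at -0.70 (edgeR adjusted p 0.000418), under 2-fold. Odf2, an outer dense fibre protein of the flagellum and a substrate of TSSK4, had 4097 ± 615 and 3071 ± 264 CPM (log2 fold change -0.42, SE 0.16, edgeR adjusted p 0.119), and without both libraries -0.43 (edgeR adjusted p 0.0175). At an unadjusted p under 0.05, Tsks and Odf2 were lower and none of the 8 was higher, against 2143 lower and 2166 higher of 15613 genes.

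The remaining partners differed less from wild type or varied more. Tsacc, a co-chaperone that binds TSSK proteins, had 82.27 ± 14.4 and 77.06 ± 33.2 CPM. Its log2 fold change of -0.10 changed sign to 0.05 with scaling by total counts, to 0.11 without Rfx2-/- replicate 1 and to 0.08 without replicate 3. Spag16, an axoneme protein phosphorylated by TSSK2, had a log2 fold change of -0.26 (edgeR adjusted p 0.285), and Pdpk1, the kinase that phosphorylates the activation loop of TSSK3, -0.16 (edgeR adjusted p 0.619). Ppp1cc, a phosphatase subunit found with TSKS and TSSK1, had 0.03 (edgeR adjusted p 0.932). Of the cytosolic HSP90 chaperones, which hold TSSK proteins in an active form, Hsp90aa1 had 0.35 (edgeR adjusted p 0.199) and Hsp90ab1 -0.29 (edgeR adjusted p 0.361). Hsp90aa1 reached 601.1 CPM in Rfx2-/- replicate 2, while the other 3 knockout libraries had 367.7 to 405.7 CPM. Without that library the values were 0.15 for Hsp90aa1 and -0.11 for Hsp90ab1 (edgeR adjusted p 0.363 and 0.598).

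**Figure D4:**
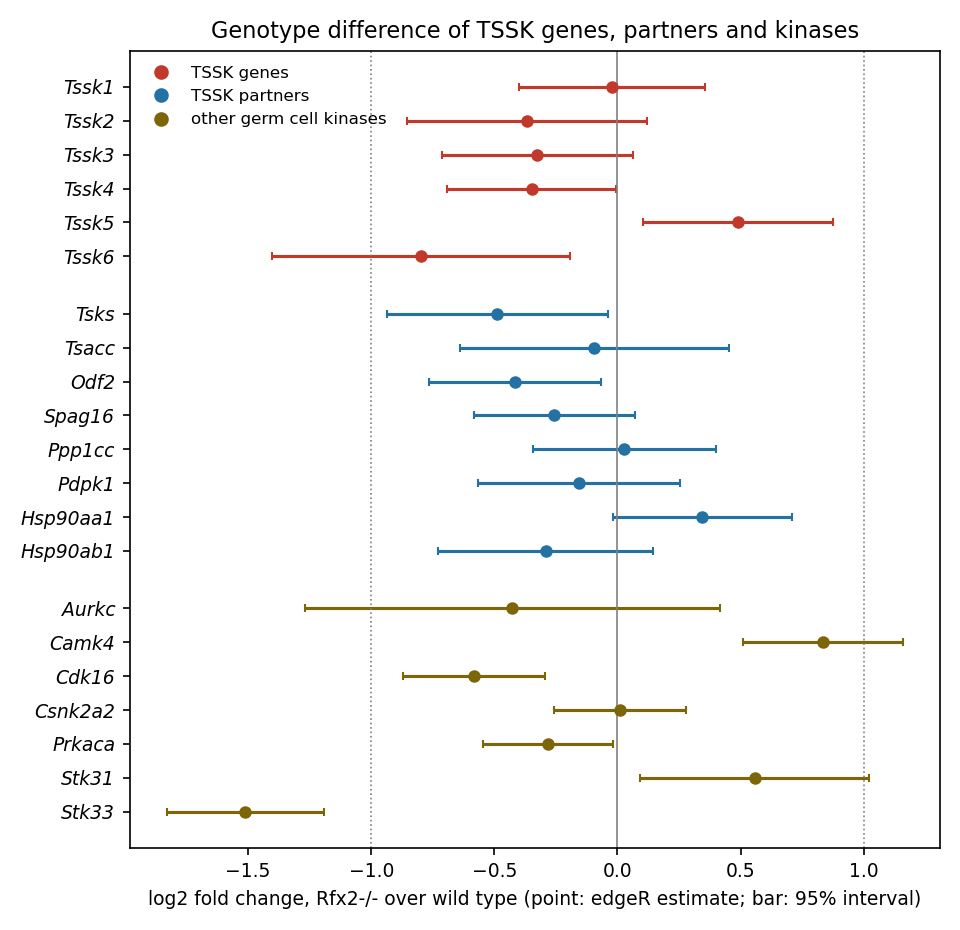
Log2 fold change of Rfx2-/- over wild type with its 95% interval (edgeR, 4 against 5 libraries) for the 6 TSSK genes (red), 8 partner genes (blue) and 7 other kinases of male germ cells (olive), with dotted lines at 2-fold. The intervals of Tssk4 and Tssk6 lie below 0 and that of Tssk5 above it, and Stk33 alone lies beyond the 2-fold line over its whole interval.

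Other kinases of male germ cells were not all like the TSSK group. Of 7 such genes, Stk33, a relative of the calcium/calmodulin-dependent kinases needed for sperm shape, was called lower and none was called higher, with a median of -0.28. Of all genes tested, 3.68% were called lower and 0.826% higher, and 1 call in a list this small is no result about the list. Stk33 had 342.9, 359.5, 340.6, 390.6 and 440.5 CPM in wild type, against 136.4, 133.3, 110.3 and 145.6 CPM in knockout libraries, without overlap. Its log2 fold change of -1.51 (SE 0.15, 95% interval -1.83 to -1.19, edgeR adjusted p 2.31e-05) lies outside the interval of every TSSK gene, although the difference between genes was not tested. In a test against a change of 2-fold itself Stk33 was not called (edgeR adjusted p 0.017). Camk4 (0.83, edgeR adjusted p 0.00301) and Cdk16 (-0.58, edgeR adjusted p 0.0133), named after their values were seen, passed an adjusted p of 0.05 but not the 2-fold limit. Among 18 AMPK-related kinases, which form the same branch of the kinase tree, 0 were called and 9 were below 0, with a median of -0.06. Both counts are near the shares over all genes tested, of which 7316 of 15613 were below 0. The lowest was Sik1 at -0.63 (edgeR adjusted p 0.0655) and the highest Hunk at 0.35 (edgeR adjusted p 0.116).

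The genes with the most similar pattern over the 9 libraries were sought for each member among 12829 named genes with a mean of at least 50 counts, by Pearson's r of log2 CPM. All genes were measured in the same libraries, including both that stand apart, so these values are descriptions. Tssk1 was closest to Klhl10 (r 0.975), Asb9 (0.97) and Spaca4 (0.969), and Tssk2 to Cypt3 (0.988), Tmem247 (0.981) and Dnajc5b (0.979). For Tssk3 the closest were Gdpd1 (0.989), Pxk (0.989) and Tctex1d1 (0.987), for Tssk4 Gm7008 (0.978), Btg1 (0.977) and Adtrp (0.974), and for Tssk6 Tmem270 (0.988), 4930544D05Rik (0.987) and Tmem189 (0.984). Tssk5 had lower values, with Kcnq1 (0.951), Tekt3 (0.948) and Fam160a2 (0.945). None of these 18 genes was called, which is no separate result, since they were picked by likeness to members that were not called. Among the members themselves r was highest for Tssk3 and Tssk4 (0.948), Tssk2 and Tssk3 (0.94) and Tssk2 and Tssk6 (0.921), whereas Tssk5 had -0.507 to 0.132 with the other 5. Tssk1 and Tssk2, neighbours on the chromosome, had an r of 0.852. With the mean of each genotype removed the order changed, and r was highest for Tssk1 and Tssk2 (0.959), followed by Tssk3 and Tssk4 (0.935), Tssk2 and Tssk3 (0.919) and Tssk2 and Tssk6 (0.917). On that scale Tssk1 had 0.914 with Tssk3 and 0.913 with Tssk4, and Tssk5 had -0.057 to 0.481 with the others.

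Genes beside the members were read as well, since their reads could be counted with them. Dgcr2, which overlaps 63 bp of the Tssk1 exon on the opposite strand, had 60.52 ± 3.24 and 55.91 ± 16 CPM (log2 fold change -0.11, edgeR adjusted p 0.728). Within 1 kb of a member were also Ess2 (0.04), Fam229a (0.07), Bsdc1 (-0.11) and Hgh1 (0.14), with log2 fold changes given in parentheses and none called.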

How the data were processed

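Raw counts of reads per gene, as whole numbers, were deposited for each mouse. Per the methods, the authors extracted total RNA, prepared TruSeq libraries and sequenced single reads. Reads were mapped to GRCm38 and those with more than 1 genomic position discarded, and counts were made over merged exons of protein coding isoforms. The submitters' processing notes name CASAVA 1.8.2, STAR 2.4 and featureCounts 1.4.6. The use of strand is not given in the sources used here.

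Groups were taken from the genotype label of each mouse. Gene names and positions came from GENCODE M21, which named 96.6% of the IDs. Counts were tested with edgeR 4.0.16 in R 4.3.3 (TMM factors, filterByExpr, robust quasi-likelihood F test, genotype as the only factor) over 15613 genes. A gene was called at an adjusted p of 0.01 and over 2-fold. DESeq2 1.42.0 was an alternative. Ratios within a library used log2 CPM with a prior count of 0.5. On simulated counts of this comparison, 100 genes altered 4-fold and 100 altered 8-fold were recovered in full (100%), with 1 false call among 15181 unchanged genes. Neither changes under 2-fold, the size estimated for the members, nor libraries that stand apart were simulated. This recovery therefore does not give the power to detect changes of that size. The chi-square of counts between libraries of a genotype was at least 4.318 per gene, so each was kept as a replicate. Littermates of both genotypes were used where possible, and p-values measure the spread between these mice. The 95% intervals of fold changes come from the same fit, and only the limit of 3 counts covers counting error alone.

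The members and lists were chosen with earlier results of these data known. The genes named were the 6 members, Rfx2, all partner genes, the called or else the lowest and highest genes of the other kinase lists, the 3 genes most like each member, and neighbouring genes.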

Additional observations from a re-analysis of the deposited data

Results flagged for a closer look

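In 98 groups of 4 or 5 libraries (levels of the members, Rfx2 and the partners, shares of the family, pair ratios and mean levels of the gene lists), 3 values lay far from the rest of their group. At 1 in 20 groups chance gives about 4.9, so this number is no more than chance gives. Of the 3 values, 2 were in wild type replicate 3 and 1 in Rfx2-/- replicate 2. None was of a TSSK gene. Hsp90aa1 had 601.1 CPM in Rfx2-/- replicate 2 while the other 3 of that genotype had 367.7 to 405.7 CPM. The mean log2 deviation of the germ cell kinases from wild type was -0.16 in wild type replicate 3 and 0.03 to 0.06 in the other wild type libraries. The same measure of the round spermatid markers was -0.33 in that library and 0.03 to 0.13 in the others.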

How the results depend on the processing

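The 18 alternatives were other scalings and filters, DESeq2, removal of the length trend, other limits of the call, thinning of the deepest library, and omission of each library or of both that stand apart. The number of TSSK genes called was 0 under 16 of them and 1 (Tssk6) without Rfx2-/- replicate 2 and without both libraries, so leaving out 1 library gave 0 to 1. The median of the members stayed between -0.51 and -0.19. Germ cell kinases called were 0 with a test against 2-fold and 3 at an adjusted p of 0.05 with no fold limit, where the genes lower and higher overall were 272 and 29, and 1142 and 544. DESeq2 called 211 genes higher. Lower genes made up 81.7% of calls and 71.7% with total counts, which moved the median of all genes to 0.16. Of the members, the sign of Tssk1 alone reversed, to 0.121 (total counts), 0.002 (no filter) and 0.072 (length trend removed), and its value was -0.111 to 0.113 when 1 library was left out. Signs also reversed for Tsacc (0.048 with total counts, and -0.402 to 0.105 leaving out 1 library), Ppp1cc (-0.182 without both libraries, and -0.143 to 0.16 leaving out 1), Pdpk1 (0.018 with the length trend removed) and Csnk2a2 (-0.034 to 0.083 leaving out 1). Pair ratios past the threshold numbered 0 to 13 when 1 library was left out and 13 without both, and ratios to markers 0 to 10. Ratios that reversed were Tssk2/Tssk3 (-0.168 to 0.029), Tssk2/Tssk4 (-0.186 to 0.065) and Tssk6 to elongating markers (-0.19 to 0.007) when 1 library was left out, and Tssk3/Tssk4 (-0.018 to 0.088, and -0.043 without both). The cause was not tested. No paired analysis was possible because the labels give the mice no shared replicate numbers. Depth was not limiting for the members, whose lowest value, 19.93 CPM of Tssk5, lies far above 3 counts.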
